A study of Mus musculus with 4 samples.

Results

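Secreted factors that act on blood and lymphatic vessels were measured in mesenchymal stromal cells (MSC) of mouse small intestine and colon. The set holds 8 of the 28692 genes counted, namely the angiopoietin-like genes *Angptl1*, *Angptl2* and *Angptl4*, the angiopoietins *Angpt1* and *Angpt2*, and the vascular endothelial growth factors *Vegfa*, *Vegfb* and *Vegfc*. The genes were listed by name and function, and *Angptl1* was also selected on its measured level, since it was near absent in colon. Its difference between the intestines is therefore a description and has no test.

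The cells came from the lamina propria, the layer of connective tissue under the epithelium, freed of epithelium, outer muscle and Peyer's patches, and were profiled by droplet RNA-seq. All mice were untreated female C57BL6/Nrj mice aged 8 to 10 weeks, 3 mice were pooled per experiment, and 2 experiments per intestine gave 2 libraries of small intestine and 2 of colon. Cells had been sorted as live and Itgβ1+, and as lacking CD45, Ter119, CD31, BP3, EpCAM and L1CAM, which takes out hematopoietic, erythroid, endothelial, epithelial and glial cells. Values below are counts of unique molecular identifiers (UMIs, each standing for 1 captured RNA molecule), summed per library and cell class and given as CPM, that is, scaled so that each sum has the same standard total of UMIs. Values of replicates 1 and 2 of an intestine are always given in that order. CPM were compared for 1 gene between classes or intestines and never between genes. With 2 libraries per intestine, the intestines did not overlap in CPM for 39.3% to 41.4% of all genes tested, depending on the cell class.

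The libraries held 2061 and 16795 barcodes in small intestine and 2590 and 13537 in colon, with 14341443 to 52269372 UMIs per library. The replicate 1 libraries had fewer and deeper cells, with a median of 6949.5 and 8810 UMIs per cell against 2734.5 and 3881 in the replicate 2 libraries. The replicate number also coincided with the version of the counting software, and the part of these differences in the results was not tested. Libraries shared between 0 and 69 barcodes. After filtering, 29233 cells fell in 5 classes named from their markers, with 15306 cells from small intestine and 13927 from colon. These were PDGFRαhi-like fibroblasts (FB, 5341 cells), CD81+-like FB (5770 cells), PDGFRαlo-like FB (16507 cells), smooth muscle cell (SMC)-like cells (1346 cells) and pericyte-like cells (269 cells). Markers summed to 2966 to 4268 CPM for the PDGFRαhi list in its own class and to 647 CPM or less in any other class, and the CD81+ list summed to 3927 to 5381 CPM in its own class and to 2107 CPM or less elsewhere. The lists behind the PDGFRαlo name were less exclusive. The Fgfr2+ list summed to 7591 and 6338 CPM in small intestinal and 5874 and 3652 CPM in colonic PDGFRαlo-like FB, but to 6528 and 4827 CPM in colonic PDGFRαhi-like FB and 9527 and 7901 CPM in small intestinal SMC-like cells. The Igfbp5+ or CD90+ list summed to 16242 and 16623 CPM and to 11110.1 and 11703 CPM in PDGFRαlo-like FB and was higher in CD81+-like FB of every library (18353 to 28458 CPM). SMC markers in PDGFRαhi-like FB summed to 10762 and 7728 CPM in small intestine and 5930 and 3022 CPM in colon, and their part in the differences of that class was not tested. Endothelial cell markers summed to 7 to 48 CPM in the FB classes.

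Growth of vessels is governed by a small number of ligand families. VEGF-A binds the receptors encoded by *Flt1* and *Kdr* on endothelial cells, VEGF-B binds the *Flt1* product, and VEGF-C acts mainly through the *Flt4* product on lymphatic endothelium. Angiopoietin 1 is an agonist of the Tie2 receptor, encoded by *Tek*, and angiopoietin 2 can oppose it. The angiopoietin-like proteins share the coiled-coil and fibrinogen-like domains of the angiopoietins but are not classical Tie2 ligands. In the intestine these factors serve the capillary nets of the villi and crypts, and VEGF-C maintains the lacteals, the lymphatic capillaries that take up dietary fat.

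The members lie on 6 chromosomes of GRCm38 (GENCODE vM21) and all are protein coding. *Angptl1* lies at chr1:156838562-156861078 on the plus strand, *Angptl2* at chr2:33216069-33247717 on the plus strand and *Angptl4* at chr17:33773750-33781830 on the minus strand. *Angpt1* lies at chr15:42424723-42676977 and *Angpt2* at chr8:18690263-18741562, both on the minus strand. *Vegfa* lies at chr17:46016993-46032369 and *Vegfb* at chr19:6982473-6987651 on the minus strand, and *Vegfc* at chr8:54077606-54187096 on the plus strand. RefSeq promoters of 300 bases (GRCm38.p6, 250 before and 50 after a RefSeq start, which need not be the GENCODE start above) were at hand for 5 of the 8 members. The promoters of *Angptl1* and *Angptl2* are shown because these paralogs had unlike patterns between the intestines, with CpG dinucleotides (CG, the same on both strands) in capitals. They lie at chr1:156838773-156839072 and chr2:33215711-33216010, both on the plus strand.
Angptl1: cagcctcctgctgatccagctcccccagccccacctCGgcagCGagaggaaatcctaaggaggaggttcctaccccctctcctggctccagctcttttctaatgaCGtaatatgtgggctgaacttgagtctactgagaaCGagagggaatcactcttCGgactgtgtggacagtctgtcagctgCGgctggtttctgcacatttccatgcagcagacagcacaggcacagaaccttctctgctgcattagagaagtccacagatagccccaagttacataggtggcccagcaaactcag
Angptl2: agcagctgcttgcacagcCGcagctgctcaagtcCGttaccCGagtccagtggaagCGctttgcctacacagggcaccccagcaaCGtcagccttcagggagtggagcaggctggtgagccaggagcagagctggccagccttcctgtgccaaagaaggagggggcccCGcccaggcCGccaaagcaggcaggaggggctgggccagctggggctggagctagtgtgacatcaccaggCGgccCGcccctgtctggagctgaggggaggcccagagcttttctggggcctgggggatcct

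The *Angptl1* promoter holds 6 CpG dinucleotides at 54.33% GC, and the *Angptl2* promoter holds 9 at 66.67% GC. Over 32851 promoters of the same length the median was 7 CpG and 52.67% GC, 94.57% held at least 1 CpG, and 47.9% and 56.53% had at most the CpG count of *Angptl1* and *Angptl2*. The hypoxia response core ACGTG, searched on both strands and found in 19.62% of all promoters, occurred in 1 of the 6 promoter sequences of members, the second promoter of *Vegfa*. The TATA box letters TATAAA, found on either strand in 13.62% of all promoters, occurred in 0 of the 6. A match or its lack describes these letters in this window and nothing about a factor.

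*Angptl1*, which encodes a secreted glycoprotein known as an inhibitor of endothelial cell growth, was expressed by all FB classes and SMC-like cells of small intestine but in colon chiefly by CD81+-like FB. In PDGFRαhi-like FB it stood at 263 and 264 CPM in small intestine (398 and 804 UMIs) against 5.51 and 5.89 CPM in colon (34 and 76 UMIs). In PDGFRαlo-like FB it stood at 132 and 134 CPM in small intestine (702 and 3665 UMIs) against 0.231 and 0.566 CPM in colon (2 and 12 UMIs). In CD81+-like FB it stood at 244 and 257 CPM in small intestine (608 and 2079 UMIs) against 115 and 74.3 CPM in colon (177 and 740 UMIs). Libraries of the intestines did not overlap in any of the 3 FB classes, and the gap was narrowest in CD81+-like FB, where colonic cells kept a clear level. SMC-like cells had 239.8 and 305 CPM in small intestine (74 and 139 UMIs) and 0 and 0.404 CPM in colon (0 and 1 UMI). Pericyte-like cells had 1 UMI in small intestine replicate 2 and 0 UMIs in the other 3 libraries, with 32369 to 756247 UMIs of all genes in these sums. This depended on the grouping, since the cells that a per-cell marker gate called pericyte-like had 136 and 182 CPM in small intestine and 1.33 and 16.7 CPM in colon.

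Means were 263.3 ± 0.778 CPM in small intestine and 5.70 ± 0.267 CPM in colon for PDGFRαhi-like FB, and 133 ± 1.08 and 0.398 ± 0.237 CPM for PDGFRαlo-like FB (SD, n = 2 libraries each). The pooled UMIs gave a ratio of small intestine to colon of 45.7 in PDGFRαhi-like FB (95% counting interval 37.5 to 56.0) and of 285 in PDGFRαlo-like FB (169 to 521). In CD81+-like FB the ratio was 3.18 (2.95 to 3.43), with a log2 difference of -1.08 between the replicate 1 libraries and -1.79 between the replicate 2 libraries. In SMC-like cells the ratio was 1230 (218 to 48797), since it rests on 1 colonic UMI against 213. The intervals are exact, cover counting error only, and are narrower than the spread between libraries would make them. Fitted log2 fold changes of colon against small intestine were -5.37, -1.55 and -8.20 in PDGFRαhi-like, CD81+-like and PDGFRαlo-like FB.

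**Figure D1:**
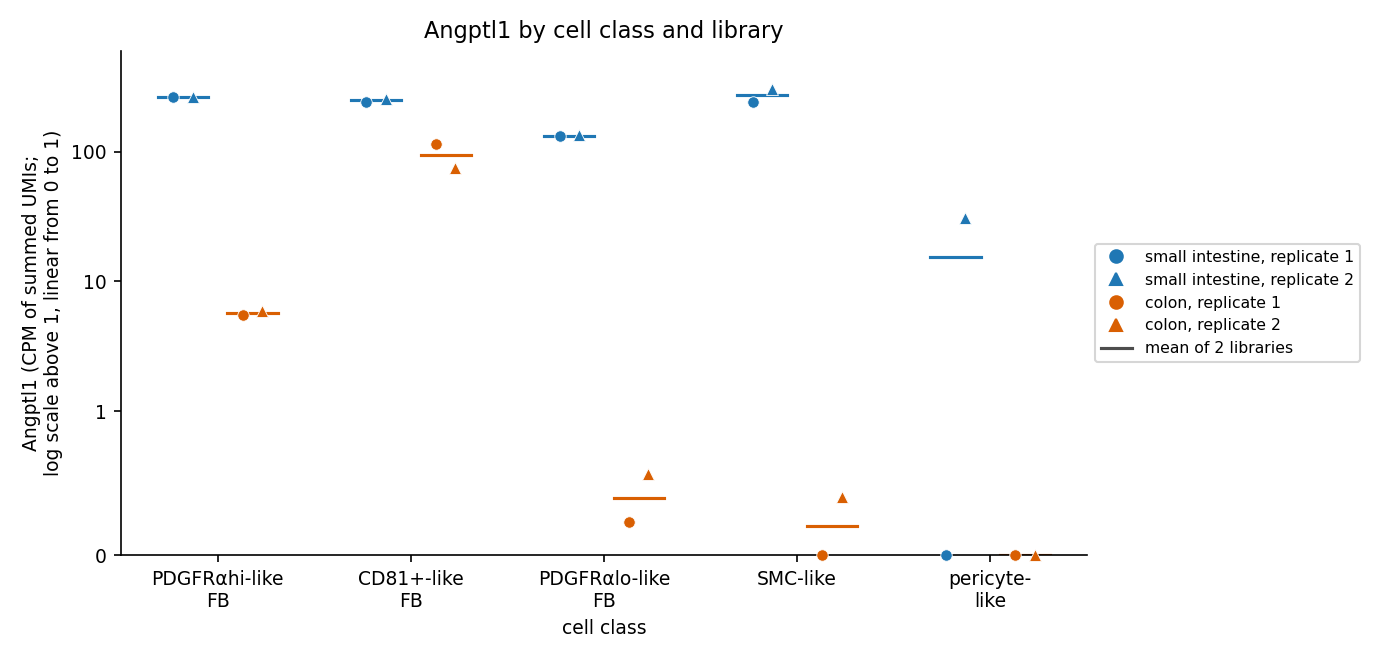
*Angptl1* level by library and cell class, with CPM of the class sum on a vertical axis that is logarithmic above 1 and linear from 0 to 1, 1 point per library and a line at the mean of 2 libraries. Small intestine libraries sit between 132 and 305 CPM in the FB and SMC-like classes, while colon libraries pass 6 CPM only in CD81+-like FB, at 115 and 74.3 CPM.

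The order of the classes also differed between the intestines. In small intestine the means ran from SMC-like cells (272 ± 45.8 CPM, SD, n = 2) through PDGFRαhi-like FB and CD81+-like FB (250.1 ± 9.26 CPM) to PDGFRαlo-like FB. The first 2 of these did not differ beyond their spread, and each later step was larger than the range of the libraries. In colon CD81+-like FB (94.7 ± 28.9 CPM) stood above PDGFRαhi-like FB, which stood above PDGFRαlo-like FB, with no overlap of libraries at either step. CD81+-like FB held 34.1% and 31.1% of the *Angptl1* UMIs of all classes in small intestine and 83.1% and 89.3% in colon. These cells made up 22.4% and 18.9% of the small intestinal cells and 9.55% and 22.2% of the colonic cells. The SMC-like class of small intestine also carried FB markers, with the Fgfr2+ FB list at 9527 and 7901 CPM against 1323 and 1053 CPM in colon, and with its own SMC list at 35394 and 20796 CPM against 46537 and 33766 CPM. The part of these FB transcripts in the *Angptl1* level of SMC-like cells was not tested.

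Among the finer clusters, *Angptl1* was high in both clusters of CD81+-like FB in small intestine, at 249 and 257 CPM in cluster 1 and at 164 and 243 CPM in cluster 7. In colon the same clusters had 138 and 80.3 CPM and 20.1 and 44.4 CPM. All 3 clusters of PDGFRαlo-like FB had at most 0.74 CPM in either colon library, so the near absence there was shared by the Fgfr2-high cluster 3 and by the others. PDGFRαhi-like FB of cluster 6 had 8.53 and 8.39 CPM in colon, and those of cluster 4 had 4.20 and 4.43 CPM. Cluster 6 held 11 and 13 small intestinal against 152 and 969 colonic cells, and none of the class markers was among its 10 leading genes.

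Shares of cells with at least 1 *Angptl1* UMI were compared after thinning each cell to 1000 UMIs, so that depth was equal. In CD81+-like FB 22.3% and 20.01% of small intestinal and 9.14% and 6.28% of colonic cells had a UMI (69.8%, 45.4%, 30.5% and 15.3% without thinning). In PDGFRαhi-like FB the shares were 23.2% and 21.8% against 0.862% and 0.558% (60.2%, 38.7%, 4.83% and 2.26% without thinning). In PDGFRαlo-like FB 11.3% and 12.1% of small intestinal cells had a UMI, against 0 of 941 cells in colon replicate 1 and 0.0196% in colon replicate 2. A count of 0 is read here as allowing up to 3 cells, or 0.319% of those 941. Endothelial cells that had passed the sort and were set aside were taken as background, with 0 of 356 small intestinal cells (allowing up to 0.843%) and 0 of 229 and 0 of 24 colonic cells (allowing up to 1.31% and 12.5%) at median depths of 4391, 5101 and 5689 UMIs. The share of CD81+-like FB lay above the limit of its own library in colon replicate 1 (9.14% against 1.31%). In colon replicate 2 it lay below that limit (6.28% against 12.5%), which rests on 24 endothelial cells. Shares of PDGFRαhi-like FB lay below the limit in both colon libraries. Their exact 95% intervals were 0.280% to 2.00% and 0.331% to 0.880%, against up to 0.391% and up to 0.109% in PDGFRαlo-like FB of colon replicates 1 and 2. These intervals cover counting error over cells only and are not a test. Without thinning, 0.562% of the endothelial cells of small intestine replicate 1 had an *Angptl1* UMI. Small intestine replicate 2 had 2 endothelial cells, and there the immune and plasma cells set aside had 130.2 and 83.3 CPM of *Angptl1* (25 and 13 UMIs), against 56.7 and 0 CPM in replicate 1 and 0 in colon. The part of free RNA or of mixed barcodes in the small intestinal levels was not tested.

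**Figure D2:**
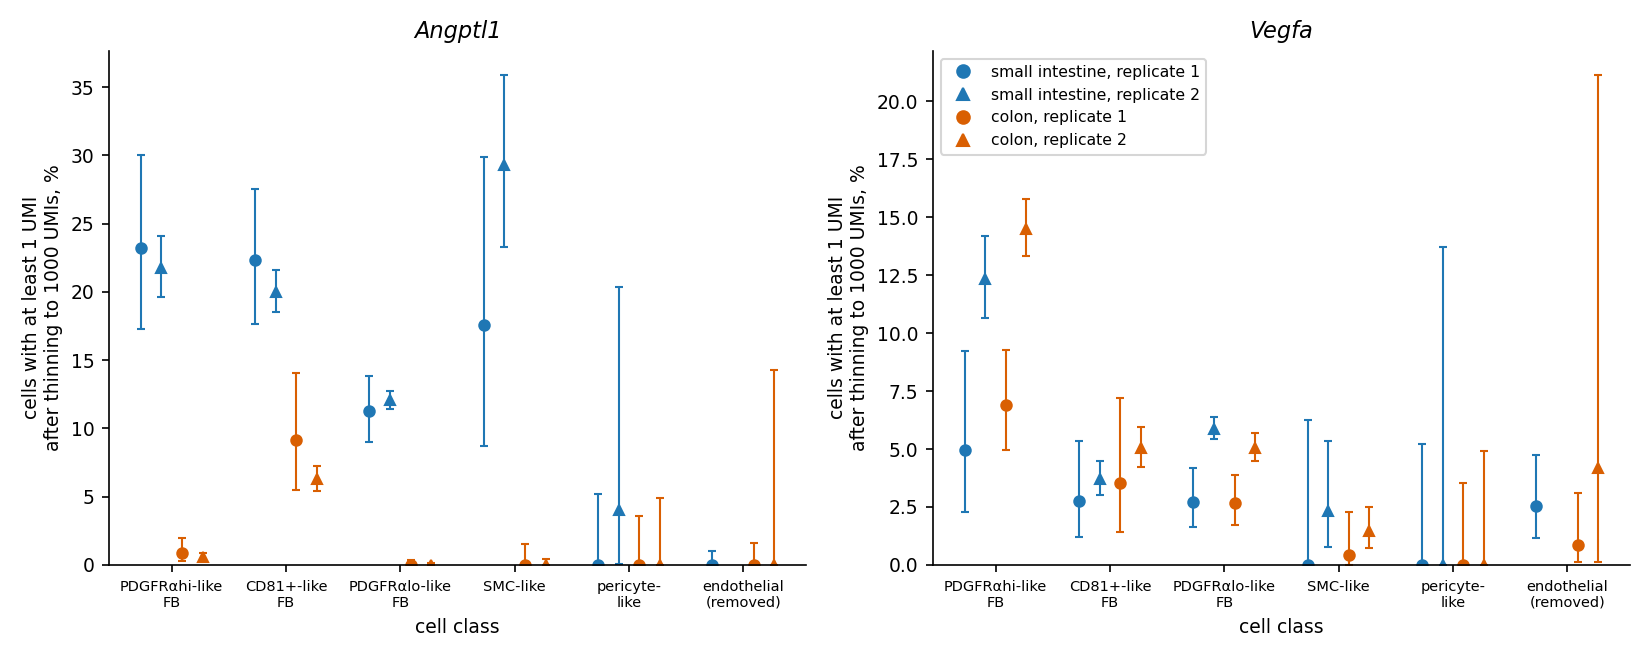
Percent of cells with at least 1 UMI of *Angptl1* and *Vegfa* after each cell was thinned to 1000 UMIs, by class and library, with exact 95% binomial intervals that cover counting error only. *Angptl1* was seen in 20.01% to 23.2% of small intestinal PDGFRαhi-like and CD81+-like FB, and *Vegfa* in 4.97% to 14.5% of PDGFRαhi-like FB of both intestines.

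*Angptl2*, a secreted factor made by many stromal cells, was similar in the 2 intestines and highest in CD81+-like and PDGFRαlo-like FB. CD81+-like FB had 187 and 209.6 CPM in small intestine and 184 and 196 CPM in colon, and PDGFRαlo-like FB had 188 and 209.6 CPM and 215 and 159.98 CPM. These classes did not differ from each other beyond their spread, and the libraries of PDGFRαlo-like FB lay above every library of pericyte-like cells, SMC-like cells and PDGFRαhi-like FB. Against pericyte-like cells the gap lay within counting error in colon replicate 2, at 159.98 against 157 CPM (32 UMIs, 95% counting interval 108 to 222 CPM). With the per-cell marker gate the level of colonic pericyte-like cells was higher, as given below. PDGFRαhi-like FB had 48.2 and 76.1 CPM in small intestine and 76.6 and 78.6 CPM in colon. SMC-like cells had 107 and 112 CPM against 79.4 and 76.7 CPM, and pericyte-like cells had 76.1, 124, 84.6 and 157 CPM in small intestine and colon. The log2 fold change of colon against small intestine was 0.46 (SE 0.32) in PDGFRαhi-like FB, -0.20 in CD81+-like FB, -0.12 in PDGFRαlo-like FB and -0.44 (SE 0.29) in SMC-like cells. None of the 4 passed the quasi-likelihood test of edgeR, with adjusted p of 0.736, 0.917, 0.945 and 0.717. The same sums thus gave a many-fold gap for *Angptl1* and no called difference for *Angptl2*.

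*Angptl4* encodes a secreted inhibitor of lipoprotein lipase that is induced by fasting, by PPAR activity and by hypoxia. PDGFRαlo-like FB had 15.4 and 32.2 CPM in small intestine and 4.62 and 11.9 CPM in colon, and CD81+-like FB had 6.81 and 32.1 CPM against 2.60 and 4.12 CPM. SMC-like cells had 13.0 and 39.4 CPM in small intestine and 5.67 and 9.28 CPM in colon. Small intestine libraries lay above colon libraries in these 3 classes, but the replicate 2 libraries lay 1.58 to 4.71 times above the replicate 1 libraries of the same intestine across the FB and SMC-like classes. The log2 fold change was -1.53 (SE 0.62, adjusted p = 0.492 by edgeR) in PDGFRαlo-like FB, -2.57 (SE 0.72, adjusted p = 0.245) in CD81+-like FB and -1.80 (SE 0.60, adjusted p = 0.323) in SMC-like cells, so none was called in this fit, which has no replicate block. With such a block all 3 classes were called, at an adjusted p of 0.00256, 0.000678 and 0.00699 by edgeR in the same order. In CD81+-like FB the adjusted p ranged from 2.23e-07 to 0.856 over the alternatives, and it was 0.00483 without small intestine replicate 1 and 0.856 without small intestine replicate 2, fits in which the lone small intestine library is assumed to vary like the colon libraries. PDGFRαhi-like FB had 5.28 and 13.1 CPM in small intestine and 4.87 and 13.8 CPM in colon, with a log2 fold change of 0.16 (SE 0.72, adjusted p = 0.989). Within that class the colonic level came mostly from cluster 6, at 12.3 and 28.3 CPM against 1.63 and 5.29 CPM in cluster 4, and without cluster 6 the log2 fold change was -1.25.

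**Figure D3:**
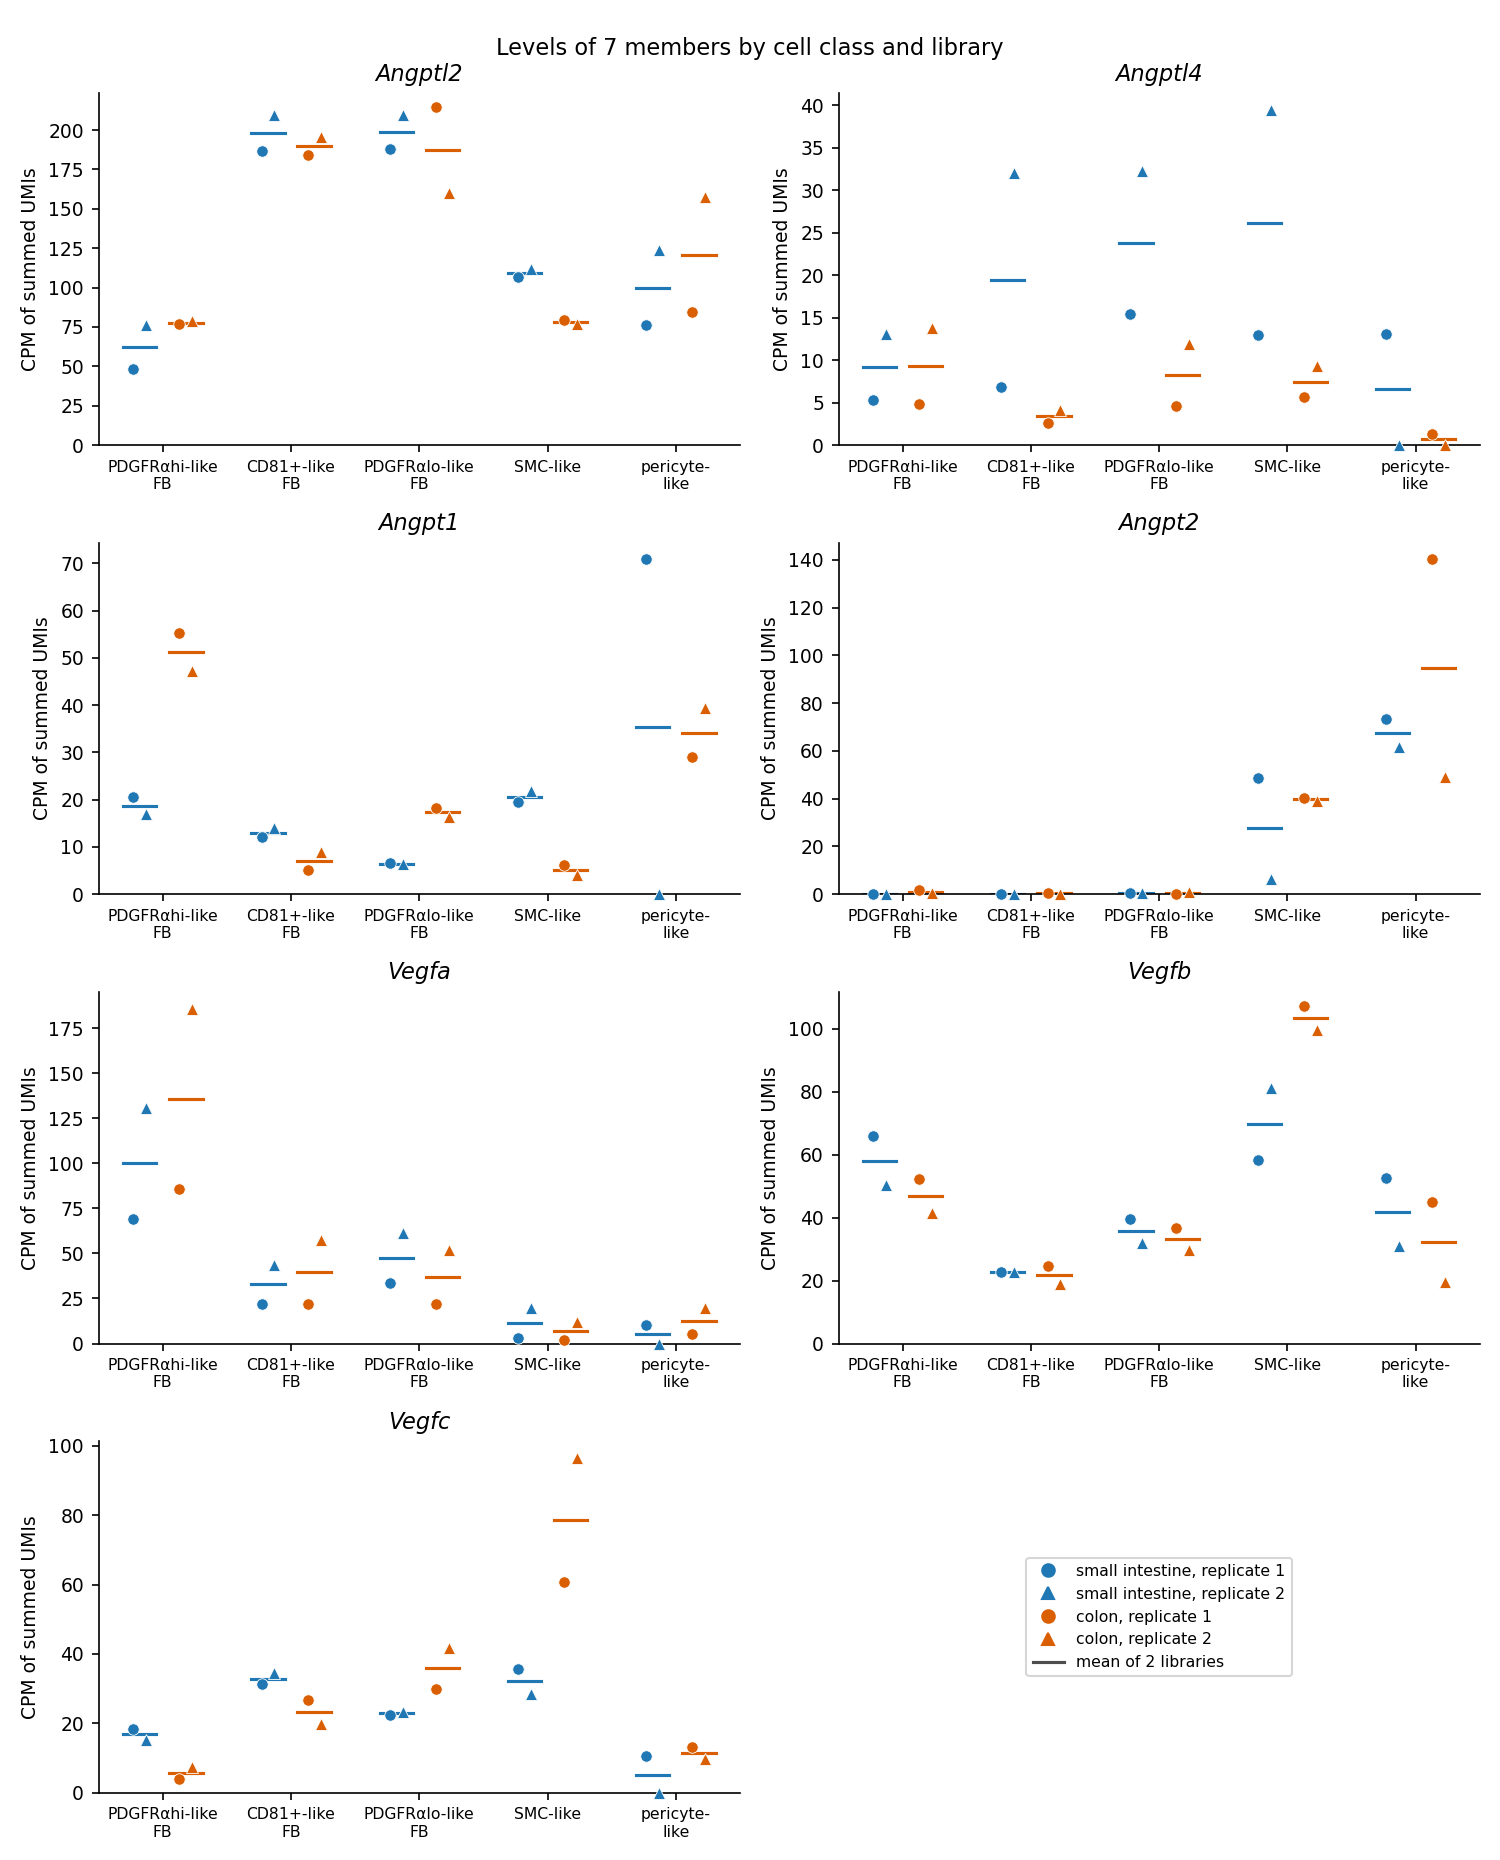
Level of the 7 members other than *Angptl1* by library and cell class, with CPM of the class sum on a linear vertical axis, 1 point per library and a line at the mean of 2 libraries. *Angptl2* points of the intestines overlap in CD81+-like and PDGFRαlo-like FB, *Angpt1* is highest in colonic PDGFRαhi-like FB among the FB points (55.3 and 47.1 CPM), and *Angpt2* is seen in pericyte-like and SMC-like cells and at 1.62 CPM or less in FB.

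*Angpt1*, the Tie2 agonist that stabilizes vessels and is made by cells around them, stood higher in colon in PDGFRαhi-like and PDGFRαlo-like FB but not in CD81+-like FB or SMC-like cells. PDGFRαhi-like FB had 20.5 and 17.1 CPM in small intestine and 55.3 and 47.1 CPM in colon, with means of 18.8 ± 2.40 and 51.2 ± 5.78 CPM (SD, n = 2). PDGFRαlo-like FB had 6.59 and 6.31 CPM in small intestine and 18.3 and 16.4 CPM in colon. In both classes each colon library lay above each small intestine library. CD81+-like FB had 12.02 and 13.9 CPM in small intestine and 5.20 and 9.04 CPM in colon, and SMC-like cells had 19.4 and 21.9 CPM against 6.19 and 4.04 CPM (6, 10, 12 and 10 UMIs). There the order of the intestines was the opposite.

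The log2 fold change of *Angpt1* was 1.59 in PDGFRαhi-like FB (SE 0.27, adjusted p = 0.0739 by edgeR) and 1.39 in PDGFRαlo-like FB (SE 0.22, adjusted p = 0.0866). It was -0.91 in CD81+-like FB (SE 0.36, adjusted p = 0.461) and -1.97 in SMC-like cells (SE 0.56, adjusted p = 0.212), so no class passed the threshold in this fit, which has no replicate block. With such a block PDGFRαhi-like FB and SMC-like cells passed, at an adjusted p of 3.96e-07 and 0.00663 by edgeR. In PDGFRαhi-like FB the call turned on the setting, with an adjusted p of 0.0120 by DESeq2 and 0.0162 with no filter on low counts, and over all alternatives it ranged from 3.96e-07 to 0.480 at a log2 fold change of 1.46 to 1.70. Within the class, cluster 4 alone had 20.7 and 17.2 CPM against 60.4 and 51.5 CPM. PDGFRαhi-like FB held 24.0% and 14.9% of the *Angpt1* UMIs of all classes in small intestine and 63.0% and 57.2% in colon, while their share of the cells was 13.9% and 9.67% against 28.1% and 27.2%. Pericyte-like cells had 70.8 and 0 CPM in small intestine and 29.1 and 39.3 CPM in colon (27, 0, 22 and 8 UMIs). With 25 to 102 cells per library this class had no test.

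*Angpt2*, the context-dependent Tie2 ligand best known from activated endothelium, was at its highest level in the pericyte-like and SMC-like classes. Pericyte-like cells had 73.4 and 61.8 CPM in small intestine and 140.2 and 49.1 CPM in colon (28, 2, 106 and 10 UMIs), and SMC-like cells had 48.6 and 6.57 CPM and 40.2 and 39.2 CPM (15, 3, 78 and 97 UMIs). In all FB classes it was at 1.62 CPM or less in every library, although PDGFRαlo-like FB, with 69.7% of the cells, held 13 of the 19 *Angpt2* UMIs of small intestine replicate 2. SMC-like cells lay above FB with no overlap over the 4 libraries. The lowest library of pericyte-like cells (49.1 CPM) lay just above the highest of SMC-like cells (48.6 CPM), and with the per-cell marker gate these classes overlapped, at 38.97, 1.03, 125 and 5.84 CPM against 22.6, 2.09, 40.5 and 28.5 CPM in small intestine and colon. Endothelial markers in pericyte-like cells summed to 97, 93, 305 and 177 CPM, and their part in this level was not tested. In SMC-like cells the log2 fold change of colon against small intestine was 0.69 (SE 0.70, adjusted p = 0.845 by edgeR), and without small intestine replicate 2 it was -0.24.

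*Vegfa*, the main growth factor of blood vessel endothelium and a classical hypoxia target, was highest in PDGFRαhi-like FB of both intestines. There it stood at 69.3 and 131 CPM in small intestine against 85.6 and 186 CPM in colon. PDGFRαlo-like FB had 33.5 and 61.6 CPM in small intestine and 22.1 and 51.7 CPM in colon, and CD81+-like FB had 22.0 and 43.6 CPM against 22.1 and 57.7 CPM. Every library of PDGFRαhi-like FB lay above every library of the other classes. SMC-like cells had 3.24, 19.7, 2.06 and 12.1 CPM, and pericyte-like cells had 10.5, 0, 5.29 and 19.7 CPM, in small intestine and colon. In each FB class of each intestine the replicate 2 library lay 1.84 to 2.61 times above the replicate 1 library, which is more than the intestines differed. The log2 fold change of colon against small intestine was 0.61 (SE 0.54) in PDGFRαhi-like FB, 0.19 in CD81+-like FB, -0.38 in PDGFRαlo-like FB and -0.72 in SMC-like cells, with adjusted p by edgeR of 0.840, 0.971, 0.917 and 0.904.

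After thinning to 1000 UMIs, 4.97% and 12.3% of small intestinal and 6.90% and 14.5% of colonic PDGFRαhi-like FB had a *Vegfa* UMI. The same share was 2.53% in endothelial cells of small intestine replicate 1 and 0.873% and 4.17% in those of colon replicates 1 and 2. PDGFRαhi-like FB held 30.6% and 16.3% of the *Vegfa* UMIs in small intestine and 69.4% and 58.4% in colon. Within this class, cluster 4 had 70.2 and 131 CPM in small intestine and 51.5 and 120 CPM in colon, and cluster 6 had 164 and 298 CPM in colon. The log2 fold change of the class was -0.10 without cluster 6 and -0.17 without colon replicate 2, so its sign was not stable. In PDGFRαlo-like FB the Fgfr2-high cluster 3 had 45.6 and 105 CPM in small intestine and 41.99 and 93.3 CPM in colon, above clusters 0 and 2 of the same library in each case.

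**Figure D4:**
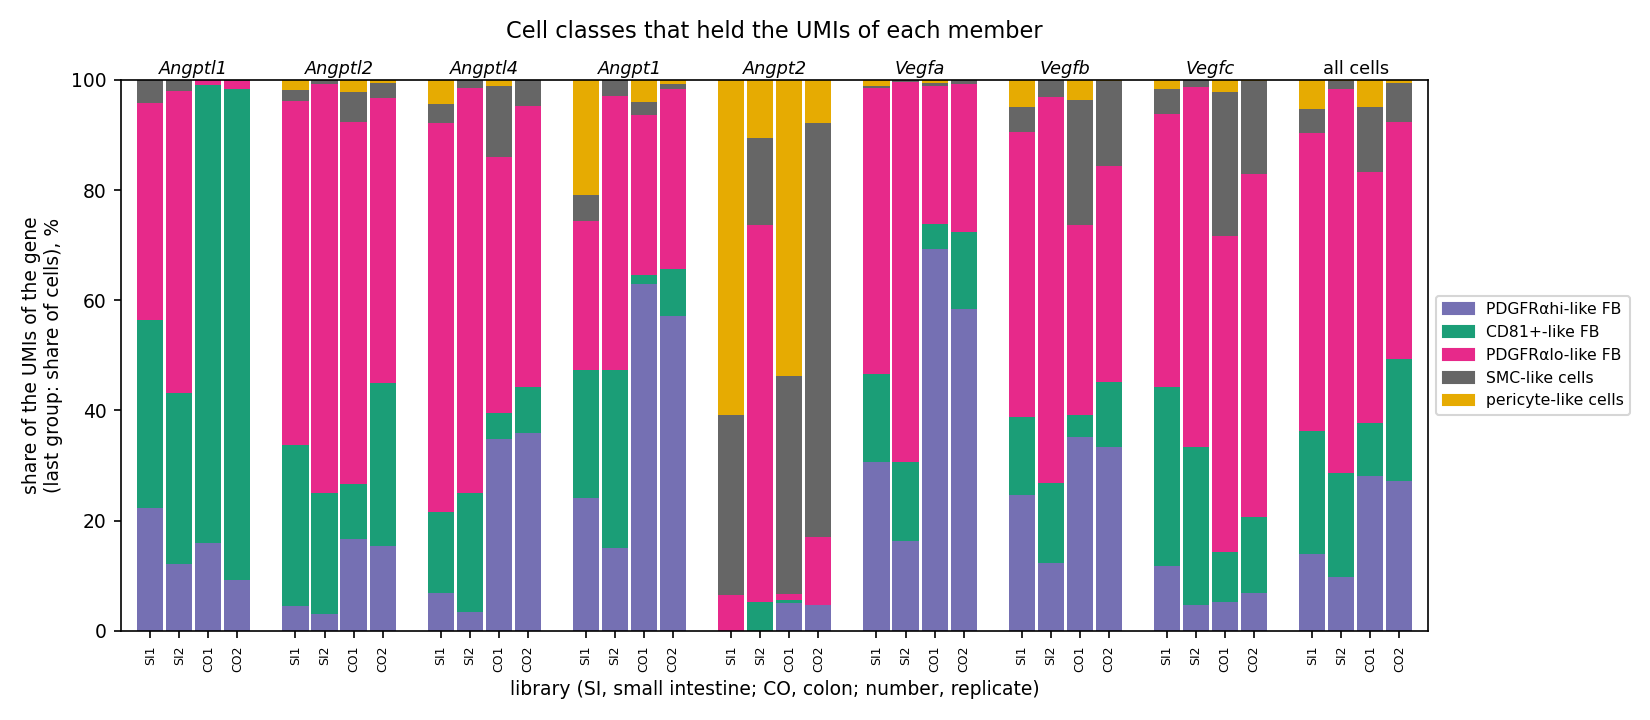
Share of the UMIs of each member that each cell class held, as stacked percent per library, with the percent of cells in each class at the right. CD81+-like FB held 83.1% and 89.3% of colonic *Angptl1* UMIs, and PDGFRαhi-like FB held 69.4% and 58.4% of colonic *Vegfa* UMIs at 28.1% and 27.2% of cells.

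*Vegfb*, whose product binds the *Flt1* receptor and is known from muscle and fat, was highest in SMC-like cells of colon and varied little between the intestines in FB. SMC-like cells had 58.3 and 81.1 CPM in small intestine and 107 and 99.7 CPM in colon, with a log2 fold change of 0.60 (SE 0.32, adjusted p = 0.623 by edgeR). PDGFRαhi-like FB had 66.0 and 50.2 CPM against 52.4 and 41.5 CPM, and PDGFRαlo-like FB had 39.5 and 32.0 CPM against 36.6 and 29.6 CPM. CD81+-like FB had the lowest level of the FB and SMC-like classes, at 22.8 and 22.6 CPM and 24.7 and 19.0 CPM, with no overlap with PDGFRαlo-like FB. The log2 fold changes of the FB classes lay between -0.22 and -0.14, with adjusted p between 0.917 and 0.947. Pericyte-like cells had 52.4, 30.9, 45.0 and 19.7 CPM in small intestine and colon.

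*Vegfc*, the growth factor of lymphatic vessels, was highest in colonic SMC-like cells and lowest among the FB in PDGFRαhi-like FB. SMC-like cells had 35.6 and 28.5 CPM in small intestine and 60.8 and 96.5 CPM in colon, and PDGFRαlo-like FB had 22.4 and 23.3 CPM against 30.04 and 41.7 CPM. PDGFRαhi-like FB had 18.5 and 15.1 CPM in small intestine and 3.89 and 7.44 CPM in colon, and CD81+-like FB had 31.2 and 34.6 CPM against 26.7 and 19.8 CPM. Thus the colon libraries lay above in 2 classes and below in the other 2, without overlap in any of the 4. Over all genes 39.3% to 41.4% did not overlap in these classes. The log2 fold change was 1.36 in SMC-like cells (SE 0.41, adjusted p = 0.247 by edgeR) and -1.37 in PDGFRαhi-like FB (SE 0.47, adjusted p = 0.315). It was 0.63 (SE 0.28, adjusted p = 0.526) in PDGFRαlo-like FB and -0.67 (SE 0.28, adjusted p = 0.488) in CD81+-like FB. No class passed the threshold.

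**Figure D5:**
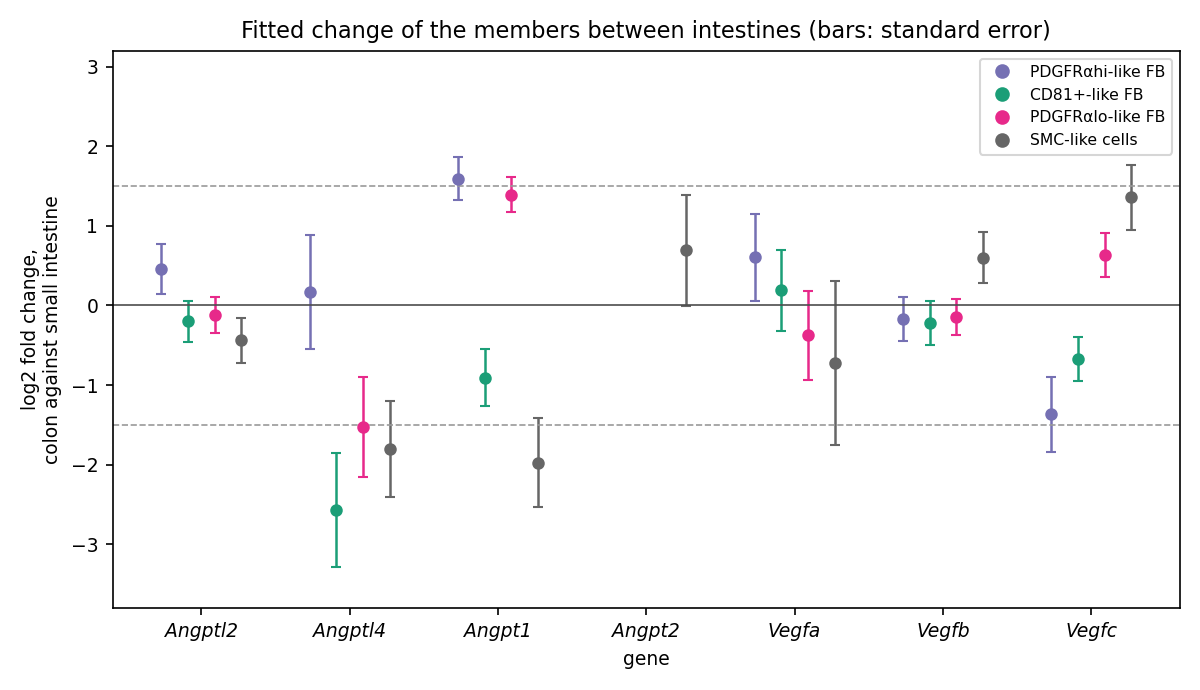
Log2 fold change of colon against small intestine for the 7 members with a test, by class, with bars of 1 SE and dashed lines at 1.5 and -1.5. *Angpt1* lies at 1.59 and 1.39 in PDGFRαhi-like and PDGFRαlo-like FB and at -0.91 and -1.97 in CD81+-like FB and SMC-like cells.

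The threshold for a call was an adjusted p (Benjamini-Hochberg) under 0.05 together with a log2 fold change beyond 1.5. Leaving out *Angptl1*, 0 of 6 tested members were called in PDGFRαhi-like FB, 0 of 6 in CD81+-like FB, 0 of 6 in PDGFRαlo-like FB and 0 of 7 in SMC-like cells by edgeR. DESeq2 called 1, *Angpt1*, in PDGFRαhi-like FB and 0 in each other class. Over all genes edgeR called 1.49%, 0.955%, 0.975% and 1.57% in the same order of classes. An unadjusted p under 0.05 was reached by 2, 2, 1 and 3 members, against 13.1%, 10.4%, 11.1% and 10.1% of all genes. Libraries of the intestines did not overlap for 3 of 6, 3 of 6, 3 of 6 and 5 of 7 members, and over all genes for 40.6%, 41.4%, 39.5% and 39.3%. Of those members 2, 0, 2 and 2 were higher in colon and 1, 3, 1 and 3 in small intestine. Over all genes 14.9%, 27.8%, 21.8% and 18.1% were higher in colon without overlap and 25.7%, 13.6%, 17.6% and 21.2% in small intestine. The median log2 fold change of the tested members was 0.31, -0.45, -0.13 and -0.44, and over all genes it lay between -0.012 and 0.014. Changes of a member in an intestine can come from RNA per cell or from the mix of cells within a class. These counts come from fits without a replicate block. With such a block edgeR called *Angpt1* in PDGFRαhi-like FB, *Angptl4* in CD81+-like and PDGFRαlo-like FB and both in SMC-like cells. It then also called more of all genes, as given below.

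Whether the intestines differed alike in the 3 FB classes was tested with a class by intestine term, with library as a block. The term passed an adjusted p of 0.05 for 4 of the 6 members tested, against 18.2% of all genes. These were *Angpt1* (adjusted p = 9.1e-06), *Angptl4* (3.93e-05), *Vegfa* (0.000147) and *Vegfc* (0.000285). *Angpt1* was higher in colon in PDGFRαhi-like and PDGFRαlo-like FB and lower in CD81+-like FB, whereas *Vegfc* was higher in colon in PDGFRαlo-like FB only. *Angptl4* had a log2 fold change of 0.16 in PDGFRαhi-like FB and of -1.53 and -2.57 in the other classes, and *Vegfa* had its highest log2 difference in PDGFRαhi-like FB and its lowest in PDGFRαlo-like FB. Without cluster 6 the adjusted p was 1.77e-05 for *Angpt1*, 0.0200 for *Angptl4*, 0.0492 for *Vegfa* and 0.00142 for *Vegfc*. Without colon replicate 2 it was 0.0519 for *Angptl4*. Over all alternatives the adjusted p ranged from 2.21e-15 to 0.00712 for *Angpt1*, from 1.03e-14 to 0.0519 for *Angptl4*, from 7.33e-07 to 0.0492 for *Vegfa* and from 2.43e-14 to 0.0230 for *Vegfc*. For *Angptl2* and *Vegfb* the term had an adjusted p of 0.0802 and 0.925.

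Receptors of these ligands were unevenly detected in the sorted MSC. *Kdr*, *Flt1*, *Flt4*, *Tie1* and *Ptprb*, which encode receptors and a receptor phosphatase of endothelium, were at 9.72 CPM or less in every FB and SMC-like sum. *Nrp1*, a VEGF co-receptor, was highest in PDGFRαlo-like FB at 318 and 413 CPM in small intestine and 330.4 and 439 CPM in colon. *Nrp2*, the co-receptor for VEGF-C, stood at 215 and 334 CPM in small intestine and 193 and 275 CPM in colon in PDGFRαhi-like FB. *Tek* was highest in CD81+-like FB, at 25.2 and 24.6 CPM in small intestine and 63.7 and 73.0 CPM in colon, with a fold change of 1.32 on the log2 scale (SE 0.26, adjusted p = 0.106 by edgeR). Of the 8 receptor genes 3, 3, 3 and 2 were tested in PDGFRαhi-like, CD81+-like and PDGFRαlo-like FB and SMC-like cells, and 0 were called in each class by edgeR, with 0, 1, 2 and 1 at an unadjusted p under 0.05. Over all genes 1.49%, 0.955%, 0.975% and 1.57% were called and 13.1%, 10.4%, 11.1% and 10.1% reached that p. The same shares stand beside the counts of the lists below.

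Of 7 other ligands of the same families 4, 6, 5 and 1 were tested in the 4 classes. By edgeR 0 were called in each class, with 4, 1, 1 and 1 at an unadjusted p under 0.05. *Figf*, which encodes VEGF-D, had 4.62 and 3.94 CPM in small intestinal and 30.2 and 13.5 CPM in colonic PDGFRαhi-like FB (log2 fold change 2.47, adjusted p = 0.101). *Pgf*, placental growth factor, had 46.1 and 76.1 CPM in small intestinal and 21.0 and 30.4 CPM in colonic PDGFRαlo-like FB (-1.27, adjusted p = 0.314). *Angptl6* had 16.2 and 13.1 CPM in small intestinal and 66.0 and 56.5 CPM in colonic SMC-like cells (2.12, adjusted p = 0.0675). For each of these 3 genes the libraries of the intestines did not overlap, as for 39.3% to 40.6% of all genes in the same classes. *Angptl7* had 0 UMIs in both small intestinal and 4 and 23 UMIs in the colonic libraries of CD81+-like FB (adjusted p = 0.169 by edgeR), and no fold is given. Among the FB and SMC-like classes *Angpt4* was highest in PDGFRαhi-like FB, at 5.28 and 4.27 CPM in small intestine and 9.89 and 7.83 CPM in colon (adjusted p = 0.344), and *Angptl8* in PDGFRαlo-like FB, at 6.97 and 2.33 CPM against 1.73 and 1.84 CPM (adjusted p = 0.561).

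Among 12 other secreted pro-angiogenic factors, of which 8, 9, 9 and 6 were tested, *Mdk*, *Esm1* and *Cxcl12* were called by edgeR. *Mdk*, which encodes the heparin-binding growth factor midkine, had 196 and 216 CPM in small intestinal and 58.5 and 45.3 CPM in colonic CD81+-like FB (log2 fold change -2.14, adjusted p = 0.0345). In SMC-like cells *Mdk* had 207 and 206 CPM against 20.6 and 28.7 CPM (-3.01, adjusted p = 0.0117), and *Cxcl12*, a chemokine for endothelial and immune cells, had 648 and 644 CPM against 160.4 and 170.3 CPM (-1.92, adjusted p = 0.0292). *Esm1*, better known from endothelial tip cells, had 0 and 4 UMIs in small intestinal and 21 and 126 UMIs in colonic CD81+-like FB, or 0 and 0.494 CPM against 13.7 and 12.7 CPM (4.998, adjusted p = 0.0345). It entered the test through its colonic counts, so the size of this fold is uncertain. For CD81+-like FB 1 gene was thus higher in colon and 1 in small intestine, and for SMC-like cells 2 were higher in small intestine. Small intestinal SMC-like cells also had more of the Fgfr2+ FB list than colonic ones, as given above, and its part in these differences was not tested. Of 12 secreted inhibitors of angiogenesis 8, 9, 11 and 7 were tested and 0 were called in each class by edgeR, with 2, 4, 3 and 3 at an unadjusted p under 0.05.

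Lists of hypoxia and PPAR targets were read because *Vegfa* and *Angptl4* belong to these responses. Of 13 hypoxia genes 12, 12, 12 and 11 were tested, and 1 was called, *Slc2a1* in PDGFRαhi-like FB. This glucose transporter gene had 11.2 and 11.2 CPM in small intestine and 55.5 and 77.4 CPM in colon (log2 fold change 2.73, adjusted p = 0.0444 by edgeR). Of 13 PPAR targets 10, 9, 12 and 7 were tested, and of the genes reported here *Cd36* was called, in PDGFRαlo-like FB. *Cd36*, a fatty acid transporter gene, had 0.377 and 0.109 CPM in small intestinal and 42.6 and 21.3 CPM in colonic PDGFRαlo-like FB (7.48, adjusted p = 0.0355). Its small intestinal levels rest on few UMIs and it entered the test through its colonic counts, so the size of this fold is uncertain. The median log2 fold change of the hypoxia genes was 0.69, -0.03, 0.22 and 0.43 in the 4 classes, with 6, 2, 4 and 2 of them at an unadjusted p under 0.05 by edgeR. For the PPAR targets the median was 0.24, -0.35, -0.20 and -0.14.

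Early genes induced by tissue dissociation had a higher summed level in colon, and in replicate 2, in the FB classes, though not every single gene did. In PDGFRαhi-like FB they summed to 13329 and 21247 CPM in small intestine and to 35957 and 43567 CPM in colon, and in CD81+-like FB to 23532 and 30226 CPM against 47569 and 50134 CPM. In PDGFRαlo-like FB the sums were 21890 and 29645 CPM against 31401 and 48775 CPM. In SMC-like cells the intestines overlapped, at 19366 and 24195 CPM against 26402 and 24023 CPM, and pericyte-like cells had 26982 and 37474 CPM against 50821 and 42131 CPM. All 10 of these genes were tested in each class and 0 were called by edgeR, with 6, 3, 1 and 2 at an unadjusted p under 0.05 and median log2 fold changes of 1.16, 0.58, 0.66 and 0.44. *Vegfa* and *Angptl4*, like these sums, were higher in the replicate 2 library in each FB class of each intestine, and the part of dissociation in their levels was not tested.

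The genes with the most similar pattern over the 20 sums of 5 classes and 4 libraries were found by Pearson correlation of log2 CPM over 10584 genes, as a description in which the sums of a library share depth and preparation. For *Angptl1* these were *Smoc2* (r = 0.834), *Cltc* (0.816) and *Yeats2* (0.810). For *Angptl2* they were *Gsn* (0.939) and *Matn2* (0.902), and for *Angptl4* the interferon-induced GTPase genes *Gbp8* (0.911) and *Gbp6* (0.858), followed by *Yod1* (0.853). *Angpt1* was closest to *Arhgap26* (0.848), *Fam110b* (0.840) and *Inf2* (0.837), and *Angpt2* to *Esam* (0.970), *Dgkb* (0.963) and *Tspan15* (0.959). *Vegfa* was closest to *Arf5* (0.920), *Dad1* (0.914) and *St3gal1* (0.901), *Vegfb* to *Tgfb1i1* (0.932), *Camk2d* (0.922) and *Cript* (0.918), and *Vegfc* to *Gng8* (0.901), *Svil* (0.880) and *Aspa* (0.857). The likeness was strongest for *Angpt2*, whose pattern is set by 2 classes, and weakest for *Angptl1*.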

How the data were processed

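The authors sorted lamina propria MSC, made droplet libraries with a 3′ v3 or a 5′ kit (which library had which is not stated), and aligned reads to mm10. Raw UMI counts by gene and barcode were deposited, made with Cell Ranger 3.0.2 (replicate 1 libraries) or 3.1.0 (replicate 2 libraries) per the file headers. Each library pools 3 mice, the labels do not say whether both intestines of 1 number came from the same mice, and p-values measure the spread between 2 libraries per intestine.

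Of 34983 barcodes, 32216 passed minimums of 500 genes and 1000 UMIs and a maximum of 10% mitochondrial UMIs. Scrublet in scanpy 1.11.5 (Python 3.11.15) at a fixed score of 0.2 removed 26, 913, 45 and 535 doublets (1.42%, 5.98%, 1.85% and 4.22%) of small intestine and colon replicates 1 and 2. Libraries were integrated by anchors in Seurat 5.3.0 (R 4.3.3; 2000 variable genes, 30 components, resolution 0.5), with the members, their pathway lists and Hox genes left out of the features. Clusters were given the class whose markers had the highest average log2 fold (pseudocount 10 CPM, minimum 0.25). A further 1116 contaminating cells and cluster 8 (348 cells, led by interferon genes) were left out.

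Counts summed per library and class were tested by quasi-likelihood in edgeR 4.0.16 (filterByExpr, TMM), with p-values adjusted over all genes. The test was first run on simulated counts. DESeq2 1.42.0, other groupings (a per-cell marker gate among them) and leaving out each library were alternatives. Intervals on ratios and shares are exact 95% intervals, and a count of 0 is given with the share that 3 cells would make. Named genes were the members, the called genes of the pathway lists (at most 6 per list), the receptors, the family members detected and the 3 genes most like each member, among genes with at least 10 CPM in at least 2 sums. A called gene of the PPAR list, a gene most like *Angptl2* and a member of the ligand families are not reported here. Members and lists were chosen with earlier results of these data known.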

Additional observations from a re-analysis of the deposited data

Results flagged for a closer look

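For 4 members the difference between colon and small intestine itself differed between the FB classes, by a class by intestine term fitted over the 3 FB classes with library as a block. The adjusted p was 9.1e-06 for *Angpt1*, whose log2 fold change was 1.59 in PDGFRαhi-like FB, 1.39 in PDGFRαlo-like FB and -0.91 in CD81+-like FB. It was 3.93e-05 for *Angptl4*, with 0.16, -1.53 and -2.57 in the same order. It was 0.000147 for *Vegfa*, with 0.61, -0.38 and 0.19, and 0.000285 for *Vegfc*, with -1.37, 0.63 and -0.67. Both library pairs of the same number showed the *Angpt1* direction in each of the 3 classes. The same term passed for 18.2% of all genes.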

How the results depend on the processing

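Of the log2 fold changes of single members, 278 values under an alternative kept their direction and side of the threshold, 10 became called and 16 changed sign. In PDGFRαhi-like FB the values without 1 library ran from -0.905 to 1.02 for *Angptl4*, from -0.168 to 1.14 for *Vegfa* and from -0.357 to 0.0143 for *Vegfb*. Without cluster 6 they were -1.25, -0.102 and 0.0482, and with the per-cell marker gate *Angptl4* was -0.0594. In CD81+-like FB the values without 1 library ran from -0.724 to 0.746 for *Vegfa*. In PDGFRαlo-like FB they ran from -0.292 to 0.0227 for *Angptl2*, from -1.21 to 0.135 for *Vegfa* and from -0.306 to 0.000104 for *Vegfb*, and in SMC-like cells from -0.244 to 2.63 for *Angpt2* and from -1.37 to 1.197 for *Vegfa*. The cause was not tested. Leaving out cluster 6 was chosen after seeing the data.

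The number of members called, 0 in each class, became 1 in PDGFRαhi-like FB by DESeq2 and with no filter (*Angpt1*), 1 in CD81+-like FB with no filter (*Angptl4*) and 1 in SMC-like cells with no filter (*Angptl4*). Leaving out 1 library gave 0 to 1 in CD81+-like FB, with *Angptl4* called without small intestine replicate 1, and 0 in the other classes. Under a replicate block 1, 1, 1 and 2 members were called (*Angpt1* in PDGFRαhi-like FB, *Angptl4* in CD81+-like and PDGFRαlo-like FB, both in SMC-like cells) and 921, 491, 738 and 497 genes in all. Same-numbered libraries deviated together (r = 0.730, 0.638, 0.787 and 0.553 over genes in the 4 classes), but there are only 2 pairs and the labels do not tie the numbers to a day or batch.

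The 171 genes called in PDGFRαhi-like FB became 548 by DESeq2, 586 with no filter, 95 with the gate, 73 without cluster 6 and 0 to 459 without 1 library. The 109 of CD81+-like FB became 230 by DESeq2, 444 with no filter and 37 to 144 without 1 library. The 126 of PDGFRαlo-like FB became 455, 372 and 0 to 115. The 146 of SMC-like cells became 446 with no filter, 64 with the gate and 10 to 315. The 2351 genes with a class by intestine term became 1458 with the gate and 1366 to 2354 without 1 library. For members the term of *Angptl4* was weaker without colon replicate 2 (0.0519), and that of *Angptl2* passed with no filter (0.0121) and without either small intestine replicate 2 (0.0499) or colon replicate 1 (0.00954). The class with the highest mean over 4 libraries was the same for 8 members under the main grouping and for 5 of them when each intestine was clustered alone, 6 with the gate, 6 at resolution 1 and 7 with at least 1000 genes per cell. The gate placed 17.1% of cells (5246) near the boundary of 2 classes. Of the mean levels of members by class and intestine, recomputed under the other groupings and cell filter, 265 moved by less than the spread between libraries and 55 by more. With the gate *Angptl1* in small intestinal pericyte-like cells was 159 CPM in place of 15.4 CPM, *Vegfa* in small intestinal SMC-like cells was 52.2 CPM in place of 11.5 CPM, and *Angptl2* in colonic pericyte-like cells was 257 CPM in place of 121 CPM. Where 1 library was left out, its intestine had 1 library, assumed to vary like the 2 of the other intestine. Levels resting on few UMIs, such as those of pericyte-like cells and of *Angptl1* in colonic SMC-like cells, are limited by depth.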

Other observations

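Cells set aside as contaminants carried members at levels of their own. *Angptl2* stood at 249 and 795 CPM in glia-like cells of small intestine and at 419.5 and 907 CPM in those of colon, against 1.88, 0, 5.52 and 18.9 CPM in endothelial cells of the same libraries. The glia-like sums held 6, 4, 13 and 140 cells, so that only the last, with 425 *Angptl2* UMIs, is well counted.

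*Vegfc* stood at 55.9 and 0 CPM in endothelial cells of small intestine and at 25.2 and 126 CPM in those of colon, and *Angpt2* at 31.4 and 0 CPM and at 36.3 and 18.9 CPM. These sums held 356, 2, 229 and 24 cells. *Vegfb* stood at 129 and 155 CPM in the 15 and 29 cells of colon with markers of interstitial cells of Cajal. *Angptl1* stood at 140 and 91.9 CPM in the cells of cluster 8 in small intestine and at 0 in both colon libraries.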
